A study of Mus musculus with 12 samples.

Results

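A set of 40 genes that act in G2 and mitosis was followed in lymphoma blasts and DN3 thymocytes of mice. The genes were listed by name from their known roles, and each was read from the row of the array with 1 gene symbol, taking the brightest row where a gene had several. Of the 40 genes, 39 were found among 19938 genes with a row of their own. The remaining one, Ccnb1, had no row with 1 symbol and was not analysed here. All 39 also passed the filter on dim genes, which kept 14953 genes for the tests. Top2a had several rows and the other members had 1 each.

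The study profiled T cell lymphomas from TCF-1 KO mice (6 arrays), DN3 thymocytes from TCF-1 KO mice (3 arrays) and DN3 thymocytes from wild-type mice (3 arrays), all on the C57/BL6 strain. The lymphomas and the KO DN3 cells thus shared the loss of TCF-1, an HMG-box transcription factor of the T cell lineage. Lymphoma-bearing mice were 12 to 40 weeks old and both DN3 groups came from mice of 8 to 12 weeks, so age and disease cannot be told apart. All cells were sorted from the thymus. The labels give neither the allele nor the sort markers, and they name the arrays biological replicates without saying how the mice were related. P-values therefore measure the spread between these samples. The TCF-1 gene itself was not analysed here.

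Values are log2 array signals after RMA, which puts the probe signals of all arrays on a common scale, so each difference is relative to the rest of the array. In bulk RNA, fewer cells in mitosis and less RNA per mitotic cell cannot be told apart. The number of arrays limits the precision. Median signals still differed slightly, between 5.30 and 5.39. The DN3 marker Il2ra and the T cell receptor gene Cd3e stood at 9.89 to 10.88 and 9.65 to 10.73 on all 12 arrays, and Cd4 at 4.80 to 5.26. Cd8a stood at 5.83 to 7.70 in lymphomas, 6.98 to 7.05 in KO DN3 cells and 5.67 to 6.03 in wild-type DN3 cells. A group of 34 rows without a gene name split the arrays into a smaller set (replicate 1 of both DN3 groups and lymphomas 1 and 2) and a larger set of 8, which the labels do not name. Differences are therefore also given within each set. In the smaller set they rest on 1 array of each DN3 group and on 2 lymphomas. Xist was low, at 4.13 to 4.40, on KO replicate 3 and lymphomas 1, 2 and 6, and 10.10 to 10.58 on the other 8 arrays.

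Cells that enter mitosis switch on a shared group of genes in G2: the cyclins and kinases that start mitosis, the parts of the kinetochore and spindle, the checkpoint that holds anaphase until chromosomes are attached, and the machinery of cytokinesis. Many of their promoters carry the cell cycle genes homology region (CHR), which is bound by the MuvB complexes, repressive with DREAM in quiescent cells and activating with B-Myb and FoxM1 in cycling cells. NF-Y bound to nearby CCAAT boxes often acts with the CHR. In the thymus, DN3 cells are largely resting until a productive T cell receptor beta chain drives a burst of division, called beta-selection.

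The promoters of the 5 members with the lowest p between KO and wild-type DN3 cells that had a RefSeq entry (GRCm38.p6) are shown first. None of the 5 passed a limma adjusted p under 0.05 in that comparison. Cdc25c, with a lower p than Cenpa and Cdk1, had no entry. Each window runs from 250 bases before to 50 after the annotated start, in the direction of the gene. Capitals mark matches, on either strand, to TTTGAA or TTCGAA, the usual forms of the CHR, and to CCAAT, whose reverse complement is ATTGG. The form TTCGAA reads the same on both strands. The windows are chr9:70421505-70421804 on the minus strand for Ccnb2, chr11:117848987-117849286 on the plus strand for Birc5, chr2:127831810-127832109 on the minus strand for Bub1, chr5:30666636-30666935 on the plus strand for Cenpa and chr10:69352863-69353162 on the minus strand for Cdk1.
Ccnb2: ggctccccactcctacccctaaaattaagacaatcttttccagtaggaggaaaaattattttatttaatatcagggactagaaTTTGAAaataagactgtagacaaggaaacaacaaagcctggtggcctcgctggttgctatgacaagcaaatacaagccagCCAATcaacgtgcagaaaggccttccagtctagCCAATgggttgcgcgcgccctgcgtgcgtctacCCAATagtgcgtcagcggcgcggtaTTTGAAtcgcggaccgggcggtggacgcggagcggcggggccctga
Birc5: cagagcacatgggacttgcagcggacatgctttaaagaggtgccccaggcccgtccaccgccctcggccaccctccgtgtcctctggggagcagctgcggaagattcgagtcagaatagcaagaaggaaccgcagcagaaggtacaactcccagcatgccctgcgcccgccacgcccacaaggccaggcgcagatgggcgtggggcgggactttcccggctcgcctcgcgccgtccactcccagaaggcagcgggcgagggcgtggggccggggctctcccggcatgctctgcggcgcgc
Bub1: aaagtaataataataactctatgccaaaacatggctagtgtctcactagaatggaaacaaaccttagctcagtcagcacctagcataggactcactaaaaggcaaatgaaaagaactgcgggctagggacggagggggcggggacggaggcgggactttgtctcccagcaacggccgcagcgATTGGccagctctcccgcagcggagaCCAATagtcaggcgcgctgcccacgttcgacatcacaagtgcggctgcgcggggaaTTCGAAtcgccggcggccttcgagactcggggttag
Cenpa: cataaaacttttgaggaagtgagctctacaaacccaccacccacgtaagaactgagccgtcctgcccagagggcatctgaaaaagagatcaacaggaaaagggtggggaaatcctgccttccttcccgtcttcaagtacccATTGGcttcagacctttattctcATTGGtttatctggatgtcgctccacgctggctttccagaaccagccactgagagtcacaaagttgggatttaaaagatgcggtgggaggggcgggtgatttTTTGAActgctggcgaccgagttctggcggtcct
Cdk1: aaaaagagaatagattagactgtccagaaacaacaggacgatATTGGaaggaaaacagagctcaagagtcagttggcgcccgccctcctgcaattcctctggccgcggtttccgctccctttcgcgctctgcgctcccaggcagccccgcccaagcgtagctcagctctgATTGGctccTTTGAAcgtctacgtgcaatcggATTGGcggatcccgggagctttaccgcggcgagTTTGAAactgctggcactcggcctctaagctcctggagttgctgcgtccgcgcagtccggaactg

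In Ccnb2, TTTGAA began at position 5 and at position -167 from the start, with 3 CCAAT matches between them at -87, -54 and -21. Cdk1 held TTTGAA at -15 and -71. Bub1 held the TTCGAA form at 15 and Cenpa TTTGAA at 17. The Birc5 window held no match to any of these letters.

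Of the 39 measured members, 31 had a promoter entry, and no sequence was used for Aurkb, Ccna2, Cdc25c, Dlgap5, Incenp, Kif20a, Smc4 and Tpx2. TTTGAA occurred in 22 of the 31 windows (71.0%), against 12.2% of the windows of 11745 other genes tested. TTCGAA occurred in 4 (12.9%), against 1.98% of the other genes tested. CCAAT occurred in 23 (74.2%), against 37.7%, and TTTGAA together with CCAAT in 19 (61.3%), against 4.9%. The TTTGAA matches lay close to the start: 20 members (64.5%) had one within 50 bases of it, against 2.95% of other genes tested, and the median position over all 29 matches was 3. The motifs were not particular to this set. Of 92 mitotic genes outside the set with a window, 39 held TTTGAA and 52 held CCAAT, and 31.5% had TTTGAA within 50 bases of the start. CCAAT matches lay further upstream, with a median position of -71. A match is a description of letters and not a shown binding site.

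The differences between groups were about as large with TTTGAA as without it. The members without TTTGAA include Bub1 and Cdc25b, which held the TTCGAA form, so this is not a split by the CHR. Members with TTTGAA had a median log2 difference between KO and wild-type DN3 cells of 0.23 (22 genes), and those without it also 0.23 (9 genes). Between lymphomas and wild-type DN3 cells the medians were 0.23 with the motif and 0.23 without it.

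**Figure D1:**
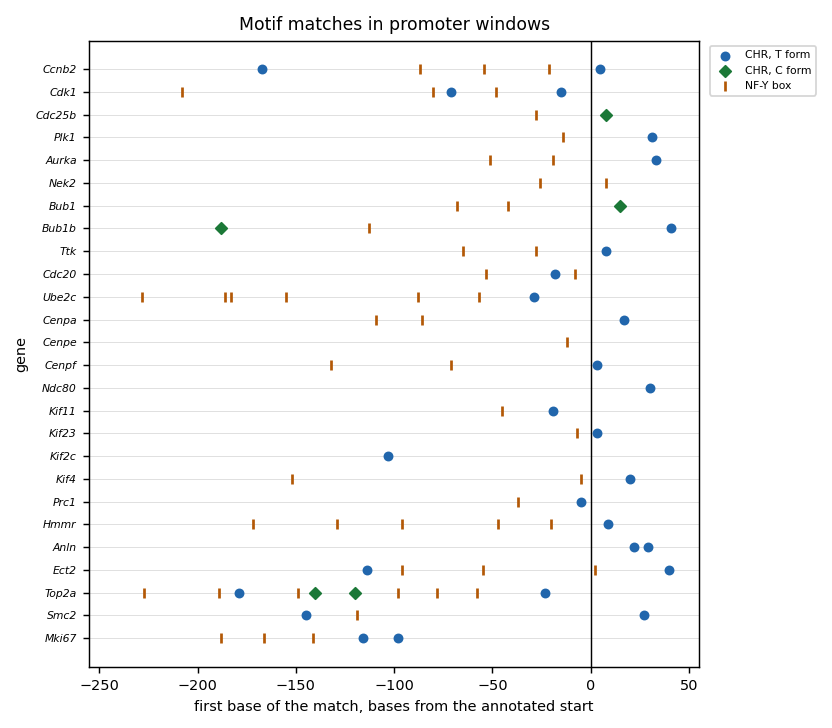
Position of each motif match, in bases from the annotated start, for members whose promoter window held at least 1 match; circles are TTTGAA, diamonds TTCGAA and ticks CCAAT on either strand. Of the 31 members with a window, 20 have a circle within 50 bases of the start, and the median CCAAT position is -71.

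The first comparison asked how the mitotic genes differed between DN3 cells without TCF-1 and wild-type DN3 cells. Of the 39 members, 36 had a higher mean in KO DN3 cells, with a median log2 difference of 0.23, against 0.03 over all genes tested. Of all genes tested, 55.3% lay above 0. The main fit did not use the replicate number. In it none of the 39 was called at a limma adjusted p under 0.05 over all genes. There 1.99% of all genes were called (0.568% higher and 1.42% lower). At an unadjusted p under 0.05, 9 members were higher and 0 lower, against 6.06% of all genes higher and 10.3% lower. In 9 members every KO array lay above every wild-type array, against 10.4% of all genes, and in 0 members below, against 11.6%. The DN3 arrays of the same replicate number deviated together, though for number 1 the pair cannot be told apart from the array set. With the number as a block 7 members were called, all higher, where 2.88% of all genes were called higher and 6.35% lower. With the array set as a term 4 members were called higher, where 1.52% of all genes were called higher and 3.52% lower. After a further quantile normalisation over genes, Birc5 was called (limma adjusted p = 0.0407), where 239 of the 14953 genes tested were, and the members' median was 0.33. After median-centring of the arrays 0 members were called, where 330 of the 14953 genes were. The members' median was then 0.17, against -0.03 over all genes, and 32 members lay above 0. The members' median was 0.19 within the smaller array set and 0.21 within the larger. Here the smaller set is 1 KO array against 1 wild-type array, so its differences have no replicates.

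Among the kinases and cyclins that start mitosis, all 8 members lay above 0. Ccnb2, the cyclin B2 partner of Cdk1, stood at 9.48, 9.28 and 9.27 on the KO arrays, against 8.78, 8.83 and 8.96 on the wild-type arrays. The groups did not overlap, and the difference of 0.49 (SE 0.12; 0.70 in the smaller array set and 0.38 in the larger) had a limma adjusted p of 0.0665, and of 0.0173 with the replicate block. Cdc25c, a phosphatase that removes inhibitory phosphates from Cdk1, stood at 6.19, 6.71 and 5.92 on the KO arrays, against 5.68, 5.73 and 5.54 on the wild-type arrays. All KO arrays were higher, with a wide spread among them. The difference of 0.62 (SE 0.18; 0.51 in the smaller set and 0.68 in the larger), the largest of the 39, had a limma adjusted p of 0.115, and of 0.00935 with the replicate block. Without KO replicate 2 the difference was 0.41. Cdk1, the kinase that drives entry into mitosis, stood at 8.22, 8.08 and 8.11 on the KO arrays, against 7.77, 7.92 and 7.80 on the wild-type arrays. These groups did not overlap either, at a difference of 0.31 (SE 0.11, limma adjusted p = 0.209), with 0.45 in the smaller set and 0.23 in the larger. Ccna2, the cyclin of S phase and G2, also did not overlap, at 8.19 to 8.45 on the KO arrays and 7.86 to 8.13 on the wild-type arrays. Aurka, the kinase of centrosomes and spindle poles, differed least in this group, by 0.08.

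The 4 genes of the spindle assembly checkpoint all lay above 0, with a median of 0.30. Bub1, a checkpoint kinase at the kinetochore, stood at 7.54, 7.98 and 7.94 on the KO arrays, against 7.08, 7.30 and 7.40 on the wild-type arrays. Every KO array was higher. The difference of 0.56 (SE 0.15; 0.45 in the smaller set and 0.61 in the larger) had a limma adjusted p of 0.0901, and of 0.00691 with the replicate block. Bub1 was also called without KO replicate 1, at an adjusted p of 0.0272. Bub1b, Mad2l1 and Ttk differed by 0.23 to 0.35, with overlapping groups.

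In the group of the anaphase-promoting complex, Pttg1, the separase inhibitor securin, stood at 8.31, 7.66 and 7.71 on the KO arrays, against 7.69, 7.20 and 7.30 on the wild-type arrays. Replicate 1 was the highest array in both groups, so the groups overlapped although each KO array lay above the wild-type array of its number. The difference was 0.50 (SE 0.19, limma adjusted p = 0.222), and the adjusted p was 0.0118 with the replicate block. It was 0.62 in the smaller set and 0.44 in the larger, and 0.29 without KO replicate 1. Ube2c, the ubiquitin-conjugating enzyme of the complex, stood at 7.59, 7.58 and 7.16 on the KO arrays, against 7.12, 7.13 and 7.08 on the wild-type arrays. Its groups did not overlap, and KO replicate 3 lay close to the wild-type arrays (difference 0.33, SE 0.14, limma adjusted p = 0.258). Cdc20, the activator that the checkpoint inhibits, differed by 0.11, the smallest difference among the 9 members without overlap.

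The chromosomal passenger complex, which corrects faulty attachments and guides cytokinesis, had the highest median of any role, at 0.43 over 3 genes. Birc5, which encodes survivin, stood at 9.34, 9.16 and 8.89 on the KO arrays, against 8.50, 8.62 and 8.63 on the wild-type arrays. These groups did not overlap, and the difference of 0.54 (SE 0.13) had a limma adjusted p of 0.0739, and of 0.0163 with the replicate block. The difference was 0.83 within the smaller array set and 0.40 within the larger. Aurkb, the kinase of the complex, stood at 7.36, 7.68 and 7.79 on the KO arrays, against 6.85, 7.16 and 7.51 on the wild-type arrays. Replicate 3 was the highest array in both groups and the ranges overlapped. The difference of 0.43 (SE 0.18; 0.51 in the smaller set and 0.40 in the larger) had a limma adjusted p of 0.255, and of 0.0240 with the replicate block. It was 0.27 without wild-type replicate 1. Incenp, the scaffold, differed by 0.20 with overlapping groups.

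At centromeres and kinetochores all 5 members lay above 0, from 0.00245 for Cenpf to 0.44 for Cenpa. Cenpa, the histone H3 variant that marks the centromere, stood at 7.32, 7.19 and 7.10 on the KO arrays, against 6.58, 6.76 and 6.96 on the wild-type arrays. The groups did not overlap (SE 0.13, limma adjusted p = 0.126 without and 0.0425 with the replicate block). Its difference was 0.74 in the smaller array set and 0.29 in the larger.

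The motors, spindle proteins and chromosome components differed less, and none of them had an unadjusted p under 0.05 in the main fit, without the replicate block. The 5 mitotic kinesins had a median of 0.10, the 5 spindle microtubule proteins 0.18 and the 4 genes of chromosome structure 0.04. Members below 0 were Kif2c, a kinesin that depolymerises microtubules (-0.12), Smc4, a condensin subunit (-0.10), and Hmmr, a spindle-associated hyaluronan receptor (-0.10). Top2a, the topoisomerase that disentangles sister chromatids, differed by 0.06, and Mki67, which coats mitotic chromosomes and encodes the proliferation marker Ki-67, by 0.25 (SE 0.14, limma adjusted p = 0.408). Anln and Ect2, which build the contractile ring, both differed by 0.32 with overlapping groups.

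**Figure D2:**
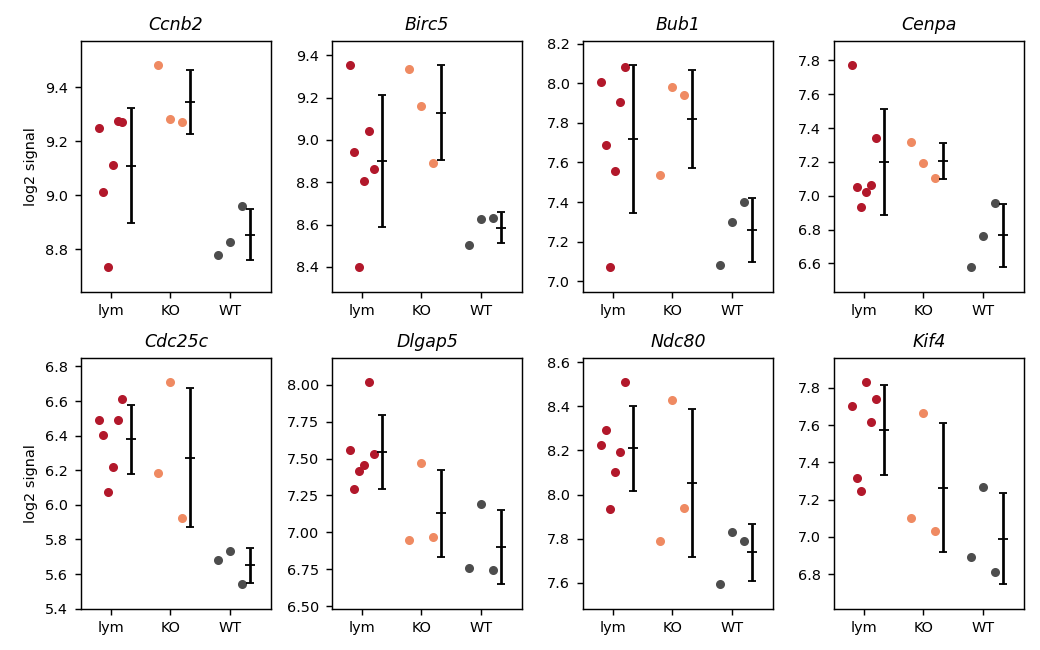
Log2 signal on each array for the 4 members Ccnb2, Birc5, Bub1 and Cenpa (top) and for the 4 members called in lymphomas (bottom), in lymphomas (lym), KO DN3 and wild-type DN3 cells; bars are mean and SD (n = 6, 3 and 3). All KO arrays lie above all wild-type arrays in the top panels, while lymphoma 3, the third lymphoma point, falls below the wild-type arrays of Ccnb2, Birc5 and Bub1.

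The replicate 2 arrays weighed on the size of the shift. KO replicate 2 was the highest KO array for 29 of the 39 members, against 33.3% of all genes, and wild-type replicate 2 was the highest wild-type array for 30, against 28.5%. Without KO replicate 2 the members' median was 0.07 and 29 lay above 0. That fit kept the high wild-type replicate 2, so the pair was broken. Without wild-type replicate 2, and with KO replicate 2 kept, the members' median was 0.33. Within same-number pairs, the KO array was higher for 30, 36 and 29 of the 39 members in pairs 1, 2 and 3, with medians of 0.19, 0.33 and 0.15. Pair 1 is the same 2 arrays as the smaller array set of the DN3 cells. The median over all genes in these pairs was at most 0.02.

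Other genes moved between the same groups. The list of genes that rise after beta-selection had summed levels, as means per array, of 7.24 to 7.48 on the KO arrays and 6.87 to 6.98 on the wild-type arrays. Of its 8 measured genes, 3 rose: Cd8a by 1.21, Cd8b1 by 1.40 and Cd5, a receptor that tracks T cell receptor signalling, by 0.63 (limma adjusted p = 0.00111, 0.000455 and 0.0380). The list of genes of DN3 cells before beta-selection ran the other way, with means of 7.93 to 8.22 on the KO arrays and 8.23 to 8.31 on the wild-type arrays. In it Dntt, the template-free polymerase of V(D)J joining, fell by 0.69 and Dtx1, a Notch target, rose by 0.63 (limma adjusted p = 0.0176 and 0.0484). Gamma-delta T cell markers had means of 5.88 to 5.98 on the KO arrays and 5.59 to 5.68 on the wild-type arrays. Among them Cd163l1 rose by 1.03 (limma adjusted p = 0.0147). NK and innate markers stood at 5.67 to 5.94 on the KO arrays and 5.45 to 5.56 on the wild-type arrays, and Gzma among them rose by 0.68 (limma adjusted p = 0.0170). Myeloid markers stood at 4.99 to 5.10 on the KO arrays and 4.81 to 4.95 on the wild-type arrays. These myeloid means lie near the cut of the filter on dim genes (log2 4.78), which 8 of the 11 genes passed. None of the myeloid genes was called. Median signals of whole arrays were also higher on the KO arrays (5.354 to 5.392) than on the wild-type arrays (5.313 to 5.344). All lists named so far did not overlap between the groups. The means of 4 further lists did. On the KO arrays they were 8.91 to 9.02 for T lineage, 5.04 to 5.11 for B cell, 5.76 to 5.92 for thymic stroma and 5.42 to 5.59 for erythroid genes. On the wild-type arrays they were 8.89 to 8.99 for T lineage, 4.98 to 5.25 for B cell, 5.69 to 5.81 for thymic stroma and 5.37 to 5.52 for erythroid genes. The part of these cells, of the array set and of Xist status or sex in the mitotic differences was not tested.

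The second comparison asked how the lymphomas differed from wild-type DN3 cells, and it shares the wild-type arrays with the first. Again 36 of the 39 members had a higher mean in lymphomas, with a median of 0.22, against -0.01 over all genes tested, of which 48.3% lay above 0. In this comparison 4 members rose and 0 fell at a limma adjusted p under 0.05, where 5.82% of all genes were called (2.96% higher and 2.86% lower). At an unadjusted p under 0.05, 13 members were higher and 0 lower, against 7.86% of all genes higher and 7.68% lower. In 5 members every lymphoma lay above every wild-type array, against 5.28% of all genes, and in 0 members below, against 5.04%. The members' median was 0.37 within the smaller array set and 0.15 within the larger. Without the 4 arrays with low Xist, an alternative chosen after seeing the data, it was 0.12 and 29 members lay above 0.

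Cdc25c was the member with the largest rise. It stood at 6.07 to 6.61 in the lymphomas, with a median of 6.45, against 5.68, 5.73 and 5.54 on the wild-type arrays. No lymphoma reached down to the wild-type range. The rise was 0.73 (SE 0.12, limma adjusted p = 0.00225), or 1.66-fold, with 0.77 in the smaller array set and 0.71 in the larger. It passed under all 20 alternative settings and left-out arrays run for this comparison, with adjusted p between 0.000756 and 0.0400.

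Dlgap5, a spindle protein that stabilises microtubules near the kinetochore, stood at 7.29 to 8.02 in the lymphomas, with a median of 7.49, against 6.76, 7.19 and 6.75 on the wild-type arrays. The groups did not overlap and lymphoma 5 was highest. It rose by 0.65 (SE 0.15, limma adjusted p = 0.0267), with 0.66 in the smaller set and 0.64 in the larger. Ndc80, the microtubule-binding core of the kinetochore, stood at 7.93 to 8.51 in the lymphomas, with a median of 8.21, against 7.59, 7.83 and 7.79 on the wild-type arrays. Here too all lymphomas were higher, and the rise was 0.47 (SE 0.12, limma adjusted p = 0.0348), with 0.66 in the smaller set and 0.37 in the larger. Kif4, a kinesin of chromosome arms and the central spindle, stood at 7.25 to 7.83 in the lymphomas, with a median of 7.66, against 6.89, 7.27 and 6.81 on the wild-type arrays. Wild-type replicate 2 lay above the lowest lymphoma, and the rise was 0.59 (SE 0.15, limma adjusted p = 0.0385), with 0.62 in the smaller set and 0.57 in the larger. Of the 20 alternatives, Dlgap5 passed in 16, Ndc80 in 10 and Kif4 in 9. Kif4 lies on the X chromosome. Without the 4 arrays with low Xist, Cdc25c and Dlgap5 were the only members called, where 939 of the 14953 genes tested were.

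**Figure D3:**
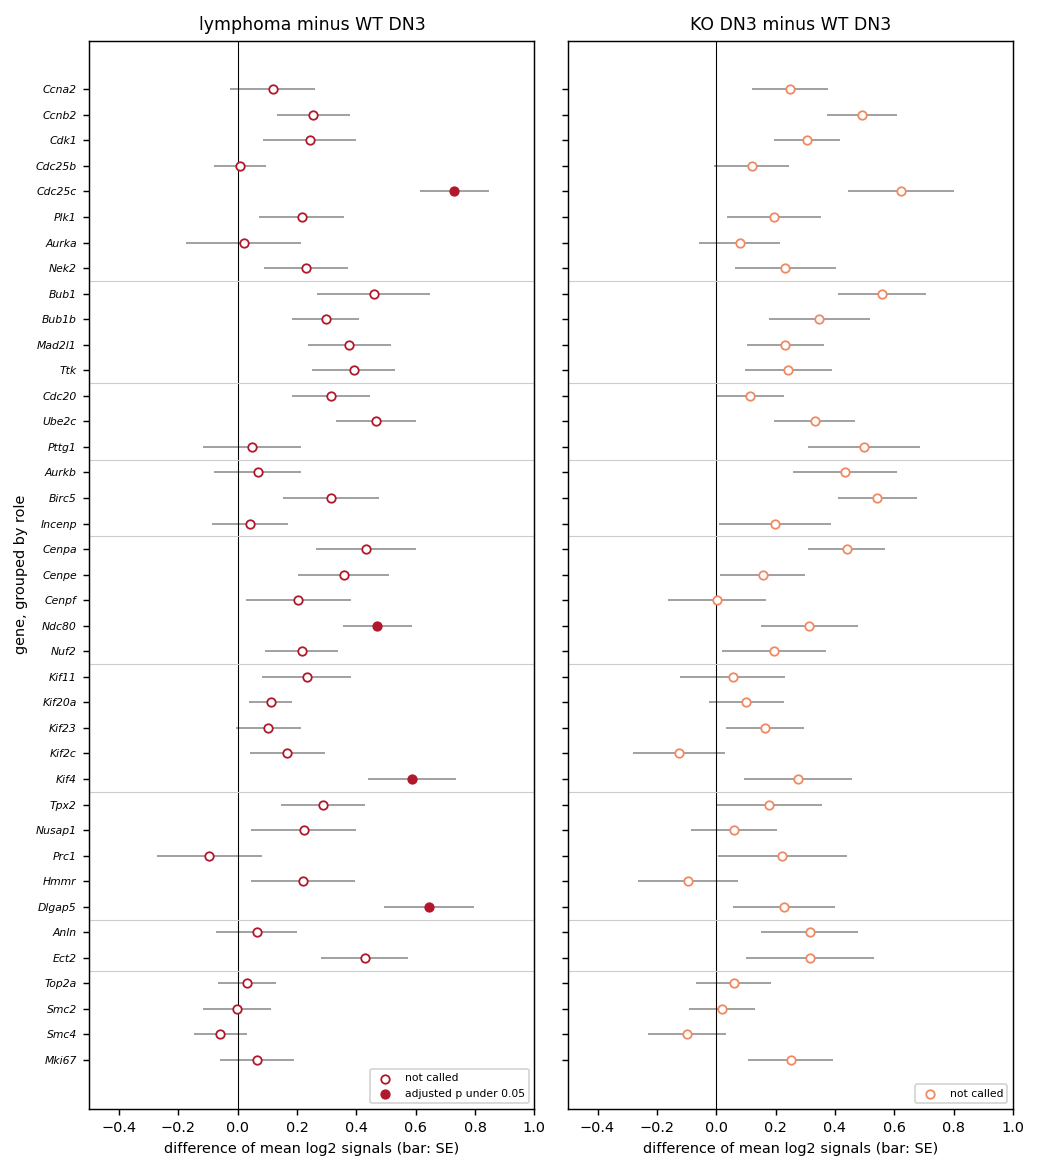
Difference of mean log2 signals for each of the 39 members, lymphoma minus wild-type DN3 (left) and KO DN3 minus wild-type DN3 (right), with the SE as a bar; filled points passed a limma adjusted p under 0.05. Both panels use the same 3 wild-type arrays, 4 members are filled on the left and 0 on the right, and 36 of 39 points lie above 0 in each. Neither panel uses the replicate number. With it as a block, 7 members were called between KO and wild-type DN3 cells, where 1380 of the 14953 genes tested were.

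Of the members that were not called, all 4 checkpoint genes had an unadjusted p under 0.05, with differences of 0.30 for Bub1b to 0.46 for Bub1 and a lowest limma adjusted p of 0.167 for Ttk. Without the 4 arrays with low Xist, Bub1 differed by 0.25, Mad2l1 by 0.21 and Ttk by 0.24, and without wild-type replicate 1 Bub1b differed by 0.19. Ube2c stood at 7.16 to 7.86 in the lymphomas, with a median of 7.63, against 7.12, 7.13 and 7.08 on the wild-type arrays. These did not overlap, and the difference of 0.47 (SE 0.13) had a limma adjusted p of 0.0728. Kif20a, a kinesin of cytokinesis, was the last member without overlap, at 6.21 to 6.33 in the lymphomas and 6.12 to 6.18 on the wild-type arrays, a difference of 0.11. The chromosomal passenger genes had a median of 0.07, with Birc5 at 0.31 (SE 0.16, limma adjusted p = 0.403), and chromosome structure genes had 0.01. Prc1, which bundles the microtubules of the central spindle (-0.10), Smc4 (-0.06) and Smc2, its condensin partner (-0.0028), lay below 0.

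The lymphomas were not alike in these genes. The median SD of the members was 0.240 in lymphomas, 0.241 in KO DN3 cells and 0.167 in wild-type DN3 cells, against 0.153, 0.162 and 0.126 over all genes. Bub1 and Aurka varied most among lymphomas, with SDs of 0.373 and 0.372, and Smc4, Kif20a and Cdc25b least, with SDs of 0.0512, 0.0609 and 0.0645. Lymphoma 3 was the lowest lymphoma for 33 of the 39 members, although it was lowest for 15.7% of all genes. Lymphoma 6 was the highest for 19 members (14.4% of all genes) and lymphoma 1 for 12 (20.6%). Averaged over the 39 members, lymphomas 1 to 6 stood at 7.87, 7.62, 7.40, 7.70, 7.76 and 7.93, the KO arrays at 7.59, 7.92 and 7.60, and the wild-type arrays at 7.38, 7.60 and 7.45. Lymphoma 3 thus lay within the wild-type range, and the other 5 lay above it. Without lymphoma 3, 8 members were called, where 2.89% of all genes were called higher and 2.7% lower, and the members' median was 0.30. The further members were Bub1, Cenpe, Ttk and Ube2c (limma adjusted p = 0.0253, 0.0177, 0.0343 and 0.00887). Lymphoma 3 was the lowest for most members, so larger differences without it follow from that. Without wild-type replicate 1 or 3, Cdc25c alone was called, and without lymphoma 1 or 5 Cdc25c and Dlgap5 were. Of the 14953 genes tested, 564, 570, 872 and 773 were called in these fits, in the same order.

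**Figure D4:**
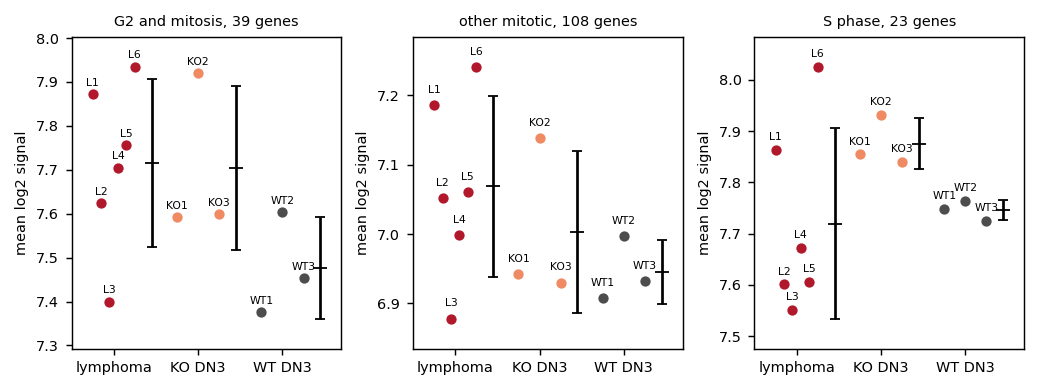
Mean log2 signal per array over the 39 G2 and mitosis genes (left), 108 other mitotic genes (middle) and 23 S phase genes (right), for lymphomas (L1 to L6), KO DN3 and wild-type DN3 arrays, with the group mean and SD as bars (n = 6, 3 and 3). Lymphoma 3 is the lowest lymphoma and lymphoma 6 the highest array in all 3 panels, and the y axes do not start at 0.

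The same lymphomas stood at the ends for related genes that were not members. Over 108 measured mitotic genes outside the set, lymphoma 3 had the lowest mean of all arrays (6.88) and lymphoma 6 the highest (7.24). Over 23 S phase genes lymphoma 3 stood at 7.55 and lymphoma 6 at 8.02, against 7.73 to 7.76 on the wild-type arrays. Markers of other cells also differed between tumours: the gamma-delta T cell list had its highest mean in lymphoma 3 (6.92), against 6.07 to 6.92 over all lymphomas and 5.59 to 5.68 on the wild-type arrays. The beta-selection list stood at 7.52 to 7.76 in lymphomas, and the list before beta-selection at 7.60 to 8.06, both outside the wild-type ranges. In lymphomas the NK and innate list had means of 5.70 to 5.91, T lineage genes 9.04 to 9.31, B cell genes 4.73 to 4.85, myeloid genes 4.85 to 4.95, stroma genes 5.47 to 5.75 and erythroid genes 5.32 to 5.48. Their part in the mitotic differences was not tested.

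**Figure D5:**
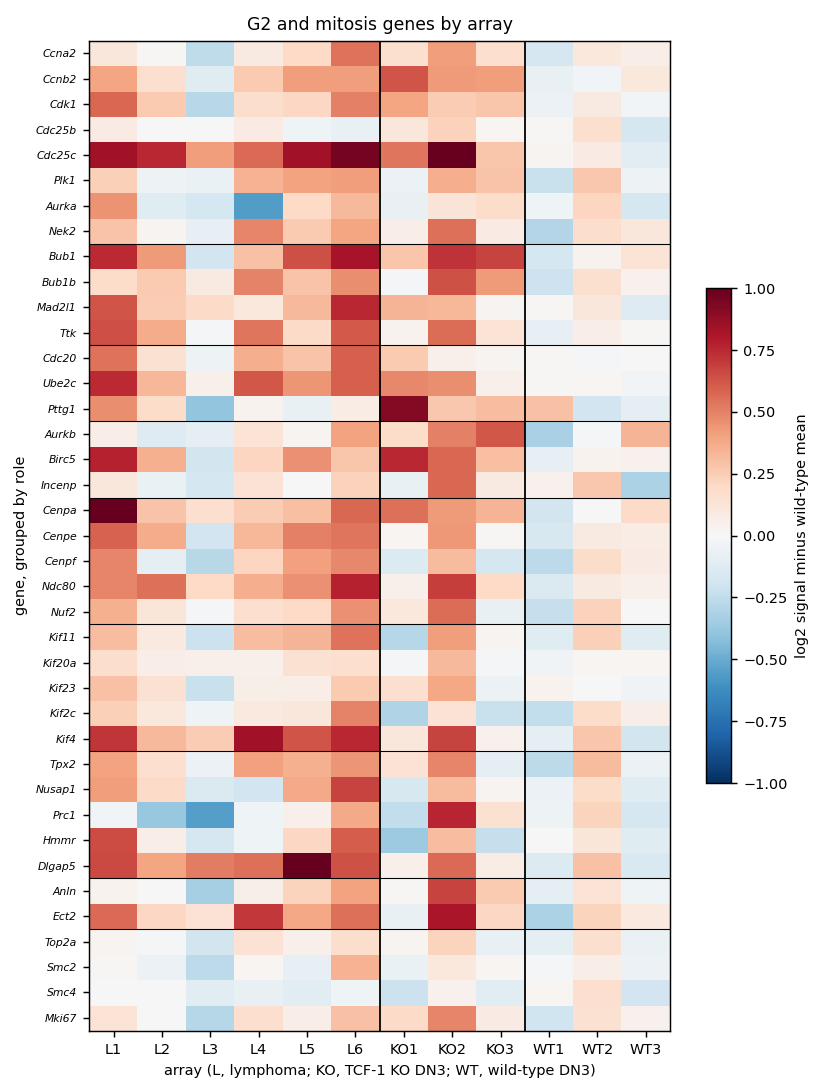
Log2 signal of each of the 39 members on each array minus its mean over the wild-type arrays, with genes in rows grouped by role and arrays in columns, lymphomas first, then KO DN3 and wild-type DN3. Lymphoma 3 is the lowest lymphoma in 33 of the 39 rows and KO replicate 2 the highest KO array in 29.

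The third comparison set the lymphomas against the KO DN3 cells, which share the loss of TCF-1. Members lay on both sides, with 20 above 0 and 19 below and a median of 0.01, against -0.03 over all genes tested, of which 43.5% lay above 0. None was called with limma, where 6.62% of all genes were (4.5% higher and 2.12% lower). At an unadjusted p under 0.05, 2 members were higher (Dlgap5 and Kif2c) and 2 lower (Aurkb and Pttg1), against 13.2% of all genes higher and 11.5% lower. No member separated the groups without overlap, against 7.34% of all genes higher and 6.23% lower. The members' median was 0.13 within the smaller array set and -0.05 within the larger.

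Aurkb stood at 7.05 to 7.58 in the lymphomas, with a median of 7.22, against 7.36, 7.68 and 7.79 on the KO arrays. The ranges overlapped, at a difference of -0.37 (SE 0.13, limma adjusted p = 0.113). The chromosomal passenger complex was the role in which all 3 genes lay below 0, with a median of -0.23. Pttg1 stood at 7.00 to 7.86 in the lymphomas, with a median of 7.45, against 8.31, 7.66 and 7.71 on the KO arrays. Its difference was -0.45 (SE 0.18, limma adjusted p = 0.156), with -0.24 without KO replicate 1 and -0.74 without the 4 arrays with low Xist. Aurkb passed after the arrays were quantile-normalised again (limma adjusted p = 0.0437), where 970 of the 14953 genes tested did. Pttg1 passed with the array set as a term (limma adjusted p = 0.0304), where 7.07% of all genes were called higher and 4.31% lower. Dlgap5 and Kif2c were higher in lymphomas by 0.42 and 0.29, with limma adjusted p of 0.137 and 0.197. Without the low-Xist arrays Kif2c differed by 0.13.

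The rest of the mitotic pathway was read from 6 lists with 114 genes, of which 106 were measured and past the filter. Between KO and wild-type DN3 cells 68 of the 106 lay above 0, against 55.3% of all genes, with a median of 0.09. Without KO replicate 2, and with wild-type replicate 2 kept, the median was 0.01 and 57 lay above 0. After median-centring of the arrays the median was 0.03 and 60 lay above 0. None was called with limma. At an unadjusted p under 0.05, 11 were higher and 6 lower, against 6.06% of all genes higher and 10.3% lower. With the replicate block 4 were called higher and 3 lower, where 2.88% of all genes were called higher and 6.35% lower. Between lymphomas and wild-type DN3 cells 79 lay above 0, against 48.3% of all genes, with a median of 0.12 and 2 called higher, where 2.96% of all genes were. Without the 4 arrays with low Xist the median was 0.02 and 58 lay above 0. Bora, an activator of Aurora A, rose by 0.69 (SE 0.14, limma adjusted p = 0.0131), at 7.04 to 7.64 in lymphomas, against 6.41, 6.82 and 6.66 on the wild-type arrays. Ncaph, a condensin subunit, rose by 0.44 (SE 0.11, limma adjusted p = 0.0397). Of the 106 genes, 7 were called without lymphoma 3, all higher, where 2.89% of all genes were called higher and 2.7% lower. Lymphoma 3 had the lowest mean over the other mitotic genes, so larger differences without it follow from that. None of the 106 was called without wild-type replicate 1 or 3, while 1 was called without wild-type replicate 2 or without lymphoma 1, 4 or 6. In these fits 560 to 872 of the 14953 genes tested were called. Between lymphomas and KO DN3 cells 59 lay above 0, against 43.5% of all genes, with a median of 0.05 and 2 called higher, where 4.5% of all genes were. The 2 calls in each lymphoma comparison are thus a smaller share than that of all genes. The median ranged from -0.06 without the low-Xist arrays to 0.15 without KO replicate 2. Zwint, a kinetochore protein of the checkpoint, rose by 0.70 (SE 0.14, limma adjusted p = 0.0120). It stood at 5.93 to 6.54 in the lymphomas, 5.41 to 5.825 on the KO arrays and 5.90 to 6.13 on the wild-type arrays. From wild type it differed by 0.28 in lymphomas and by -0.42 in KO DN3 cells (limma adjusted p = 0.316 and 0.158). Lin9, the MuvB subunit that joins the complexes acting on the CHR, rose by 0.48 (SE 0.11, limma adjusted p = 0.0193). Lin9 stood at 5.92 to 6.21 in the lymphomas, with all 6 above the KO arrays at 5.34, 5.71 and 5.65, and the wild-type arrays stood at 5.69, 6.00 and 5.94. Without KO replicate 1 or 3 none of the 106 was called, where 457 and 431 of the 14953 genes tested were. Without KO replicate 2, 8 of the 106 were called, where 1361 of the 14953 were.

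The lists differed in their medians against wild-type DN3 cells. Other kinesins and spindle proteins (23 genes) had a median of 0.12 in KO DN3 cells and 0.21 in lymphomas, and other kinetochore and checkpoint genes (29) had 0.14 in both. The 13 G2 entry kinases and phosphatases had 0.17 in KO DN3 cells and 0.16 in lymphomas. The 14 genes of the anaphase-promoting complex core had -0.07 in KO DN3 cells and 0.06 in lymphomas, the 14 of condensin, cohesin and separase 0.04 in both, and the 13 regulators of mitotic transcription -0.04 in KO DN3 cells and -0.05 in lymphomas. Foxm1, the forkhead activator of mitotic genes, stood at 6.82 to 7.40 in lymphomas and 6.88 to 6.98 in KO DN3 cells, against 6.33 to 6.93 in wild-type DN3 cells. It differed from wild type by 0.40 in lymphomas and 0.31 in KO DN3 cells (limma adjusted p = 0.211 and 0.337).

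The 23 measured S phase genes, which act in DNA replication before G2, had means of 7.72 ± 0.185 in lymphomas (SD, n = 6), 7.88 ± 0.0494 in KO DN3 cells and 7.75 ± 0.0197 in wild-type DN3 cells (SD, n = 3 each). Between KO and wild-type DN3 cells 20 of the 23 lay above 0 with a median of 0.13, and the KO arrays, at 7.84 to 7.93, were all above the wild-type arrays, at 7.73 to 7.76. Between lymphomas and wild-type DN3 cells 9 lay above 0, with a median of -0.04, and between lymphomas and KO DN3 cells 2 did, with a median of -0.16. None of the S phase genes was called with limma in any of the 3 comparisons. At an unadjusted p under 0.05, 5 were higher and 1 lower in KO than in wild-type DN3 cells, against 6.06% of all genes higher and 10.3% lower. In lymphomas 1 was higher than in wild-type DN3 cells, against 7.86% of all genes, and 2 were lower than in KO DN3 cells, against 11.5%.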

How the data were processed

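RNA from sorted cells was amplified with NuGEN's Pico system for Affymetrix Mouse Gene arrays, per the labels' protocols. The authors deposited log2 signals per row, which came from RMA and Partek per the submitters' processing notes. Their versions are not given in the sources used. No source states the log base, and base 2 was taken from the range of the values (3.00 to 13.31). Amplification of small RNA amounts can add noise, and array signals have a floor and a ceiling, which understates fold changes.

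The table had 35556 rows and 12 arrays. Rows were named through the platform annotation, and 21789 had 1 symbol, 1621 had several and 12146 had none. A filter at the 25th percentile of mean signal (log2 4.78) removed 4985 of 19938 genes. Each comparison was fitted on its 2 groups with limma 3.58.1 (R 4.3.3, lmFit then eBayes, two-sided tests). This main fit has no term for the replicate number, which the replicate block adds. P-values were adjusted by Benjamini and Hochberg over all 14953 genes tested. The scripts were tested on simulated data. Called means an adjusted p under 0.05, and "rose" and "fell" are used for called genes. The members and all gene lists were chosen with earlier results of these data known. Members could all be named. Of the other lists, called genes or up to 3 with the lowest p could be, and not all of them were. Foxm1 was named for its known role after its values were seen.

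To see whether replicate numbers pair, each array's deviations from its group mean were correlated. Same-number KO and wild-type DN3 arrays correlated at 0.51, 0.42 and 0.25 and were taken to pair. Same-number lymphoma and DN3 arrays correlated at 0.44, -0.22 and 0.15 with wild-type and at 0.38, -0.26 and 0.11 with KO. They were not taken to pair. Lymphoma 2 correlated at 0.45 with wild-type replicate 1 and at 0.385 with KO replicate 1. These arrays and lymphoma 1 form the smaller array set, so pair and array set cannot be told apart for number 1. The array sets were found from unnamed rows in which 2 groups of arrays lay at least 1 log2 unit apart; 34 rows gave this split and 14 the next. Promoter windows come from RefSeq GRCm38.p6.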

Additional observations from a re-analysis of the deposited data

Results flagged for a closer look

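Of 44 groups of lymphoma values tested for a single distant array, 2 had one, where chance gives about 1 in 20. Cenpe, the kinesin that carries chromosomes to the spindle equator, stood at 7.78 on lymphoma 3, and the nearest other lymphoma at 8.30, a gap of 0.669 of the range. Dlgap5 stood at 8.02 on lymphoma 5, and the nearest other lymphoma at 7.56, a gap of 0.635 of the range.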

How the results depend on the processing

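The members' median difference between KO and wild-type DN3 cells ranged over the alternatives from 0.07 to 0.33. The 0.07 came without KO replicate 2 and with its wild-type partner kept. Between lymphomas and wild-type DN3 cells the median ranged from 0.12 (without the low-Xist arrays, chosen after seeing the data) to 0.30. Between lymphomas and KO DN3 cells it ranged from -0.12 (without the low-Xist arrays) to 0.11 (without KO replicate 2), and its sign was not stable. The counts of calls also moved, and so did those over all 14953 genes tested, which are given in brackets. Between KO and wild-type DN3 cells 1 member was called after a further quantile normalisation (239 of all genes). There were 4 with the array set as a term (754), and 0 to 1 with 1 array left out (57 to 443). Between lymphomas and wild-type DN3 cells 2 members were called in 1 fit to all 12 arrays (884) and 1 in the larger array set (549). There were 2 without the 4 arrays with low Xist (939) and 1 to 8 with 1 array left out (560 to 872). Between lymphomas and KO DN3 cells 1 was called after a further quantile normalisation (970) and 1 with the array set as a term (1702). Of the other mitotic genes, 1 was called in lymphomas against wild type after median-centring (833) and 1 with a trended robust variance (857). There was 1 in the larger set (549), 1 without the low-Xist arrays (939) and 0 to 7 with 1 array left out (560 to 872). Against KO DN3 cells 5 were called after median-centring (1172), 4 after quantile normalisation (970) and 6 in 1 fit to all 12 arrays (1337). There were 6 with the array set as a term (1702), 1 in the larger set (325) and 0 without the low-Xist arrays (265). With 1 array left out the count was 0 to 8 (431 to 1361). The cause of these shifts was not tested. With the replicate block, the counts were 7 members and 7 other mitotic genes between KO and wild-type DN3 cells (1380). Lymphoma numbers were not taken to pair with DN3 numbers. The block, which keeps the arrays with shared numbers, left 1 member and 0 other genes called against wild type (863). Against KO DN3 cells it left 0 members and 1 other gene (999). Signs turned under at least 1 alternative in 9, 14 and 23 of the 39 members in the 3 comparisons. The largest difference among these members was 0.22, 0.22 and 0.20 in size, in the same order.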
